A study of Macaca mulatta with 33 samples.

Results

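The genes described here are 55 genes of the cell division cycle, from the cyclins that open the G1 phase to the motors that separate the daughter cells, measured in the corpus luteum of adult female rhesus macaques. They were chosen by name, and a gene was taken from the array through probe sets that carry its symbol and no other. Such a probe set was found for 39 of the 55 genes, and 37 passed the filter on low values, of 10507 genes measured in the series. NEK2 and ASPM did not pass the filter. The other 16 (CCND2, MCM6, MCM7, RRM2, TK1, PLK1, BUB1, BUB1B, TTK, CDC20, UBE2C, BIRC5, KIF11, KIF20A, NUSAP1 and PRC1) were not analysed here. Of the 37 genes measured, 30 lay over the median of all array values (a log2 intensity of 6.19) in all 33 arrays and 7 in some of them, with CDC25A and CDC6 lowest at 27 and 28 arrays.

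A cell enters division when cyclin D and cyclin E kinases release E2F transcription factors, which switch on genes for DNA replication. FOXM1 then drives the genes of mitosis, among them the B cyclins, whose kinase partner CDK1 starts mitosis, and the aurora kinases, which build the spindle. The corpus luteum forms from the ruptured follicle and grows by dense vascularisation. In the developed gland, dividing cells are known to be mostly endothelial and other stromal cells, while steroidogenic luteal cells divide little.

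The study gave rising doses of human chorionic gonadotropin (hCG), the hormone by which an early embryo maintains the gland, from luteal day 9 to mimic early pregnancy. Tissue was collected after 6 days (day 15) or 1 day (day 10) of hCG alone, of hCG with trilostane, an inhibitor of the steroid enzyme 3β-hydroxysteroid dehydrogenase that blocks progesterone synthesis, or of hCG with trilostane and the synthetic progestin R5020. Each of these 6 groups held 4 samples, and 8 untreated samples of day 10 served as the baseline. All females were adult and cycling, no untreated tissue of day 15 was analysed here, and day 15 differs from day 10 in both luteal day and length of treatment, which cannot be told apart. The labels do not say whether the samples of a group came from separate animals, so each p-value speaks only to the spread among the samples at hand, which may be technical in part. RNA came from dissected luteal tissue as a whole, in which fewer cells of a type and less RNA per cell cannot be told apart. The 5 steroidogenic markers measured (of 8 listed) averaged a log2 intensity between 11.68 and 12.83 in every sample, which matches the labelled tissue.

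The number of arrays limits the precision: the median spread of a probe set between samples of a group was 0.21 (residual SD, log2). The arrays carry the numbers of 3 array sets. Day 10 hCG and trilostane arrays were all of set 1, and day 10 R5020 arrays all of set 2. Day 15 hCG arrays were of set 1, except 1 of set 3. The day 15 trilostane and R5020 groups each held 3 arrays of set 2 and 1 of set 3. The untreated samples, 4 in each, join sets 1 and 2. Array set 2 differed from set 1 in 1809 of 28911 probe sets and in 3 of the 37 division genes, which is a similar share. The shifts of the 37 ran from -0.56 to 0.49, with a median of 0.03. Every comparison was therefore adjusted for array set, and values below are log2 intensities after centring and that adjustment. Day 15 hCG replicates 3 and 5 share a sample number, were near-identical (SD of differences 0.20, against a median of 0.48 over 528 pairs of arrays) and were averaged as 1 sample, always given last of the 4. The replicate 4 arrays of the day 15 trilostane group and of the day 15 R5020 group were closer still (SD 0.19) although they bear different treatments. The main counts of calls and medians of change that rest on them are therefore also given without them. In that fit the averaged day 15 hCG sample is the only one left with a share of array set 3. It then carries no weight in the comparisons, so such values are without it too.

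Genes of mitosis were the ones that most often differed among the 7 groups. In an F test over all groups, 20 of the 37 genes (54.1%) passed an adjusted p of 0.05, against 17.8% of all genes. All 3 spindle genes, both TOP2A and MKI67, and 6 of 7 mitotic cyclins and kinases passed. Fewer passed among 5 checkpoint genes (2), 6 replication genes (2), 6 G1 and S phase cyclins and kinases (2) and 4 CDK inhibitors (1).

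The mean level of the 17 measured genes of mitosis was 7.88, 7.62, 7.70 and 8.25 in day 15 hCG tissue, 7.95, 7.26, 7.77 and 7.72 with trilostane, and 7.76, 7.73, 8.36 and 7.63 with trilostane and R5020. After 1 day it was 8.63, 8.18, 8.56 and 8.45 with hCG, 8.16, 8.01, 7.98 and 8.33 with trilostane, and 8.55, 8.38, 8.09 and 8.68 with trilostane and R5020. Untreated tissue lay between 8.31 and 8.87, with a median of 8.53. Within each day the 3 treatments overlapped, whereas 11 of 12 day 15 samples lay below the lowest untreated sample and the exception was R5020 replicate 3. Some day 10 samples lay below the lowest untreated sample too, with hCG (8.18), trilostane (8.16, 8.01 and 7.98) and R5020 added (8.09).

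**Figure D1:**
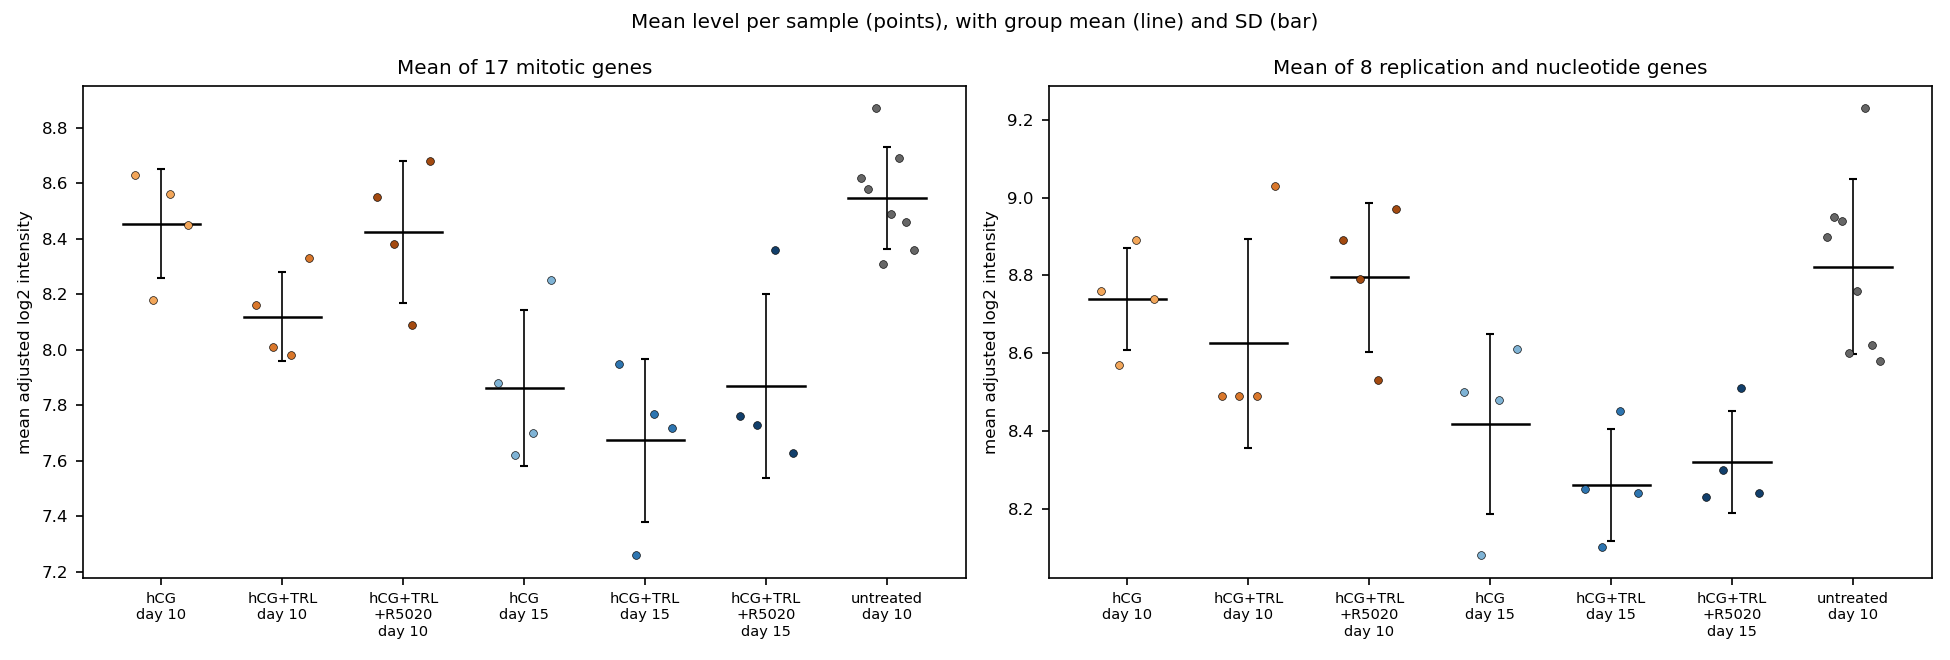
Mean log2 intensity (vertical axis) of the 17 genes of mitosis and of the 8 genes of DNA replication and nucleotide synthesis in each group (horizontal axis); points are samples, lines group means and bars the SD. For mitosis the group medians of day 15 (7.79, 7.75 and 7.75) are the lowest. The averaged sample of hCG alone (8.25) and R5020 replicate 3 (8.36) are highest among day 15 samples and lie above some day 10 trilostane samples. For replication, day 15 hCG (median 8.49) is level with day 10 trilostane (median 8.49).

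Averaged over the 3 treatments of each day, 21 of the 37 division genes were lower after 6 days than after 1 day of hCG and 0 were higher, where 10% of all genes were lower and 11.9% higher. The median change of the 37 was -0.38 (log2), with 32 below 0, against a median of 0 over all genes. Lower genes included all 3 of the spindle, both TOP2A and MKI67, both E2F1 and FOXM1, 6 of 7 mitotic cyclins and kinases, and 4 of 6 replication genes. They included 1 of 2 nucleotide synthesis genes, 1 of 6 G1 and S phase genes, 1 of 4 CDK inhibitors and 1 of 5 checkpoint genes. Of the 21 calls, 20 held in every alternative tried and without any 1 sample, and the exception was E2F1. Without the near-identical arrays the count was 20 and the median change -0.38. For 4 of the 17 genes with several probe sets, 1 passed and another did not: CDK1 (-0.65 for the third, adjusted p = 0.2322), MCM4 (-0.52 for the other, adjusted p = 0.05722), MCM5 (-0.33 for the other, adjusted p = 0.05045) and MAD2L1, whose representative one did not pass. No array set holds all 6 groups, so this comparison has no value within a single set.

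**Figure D2:**
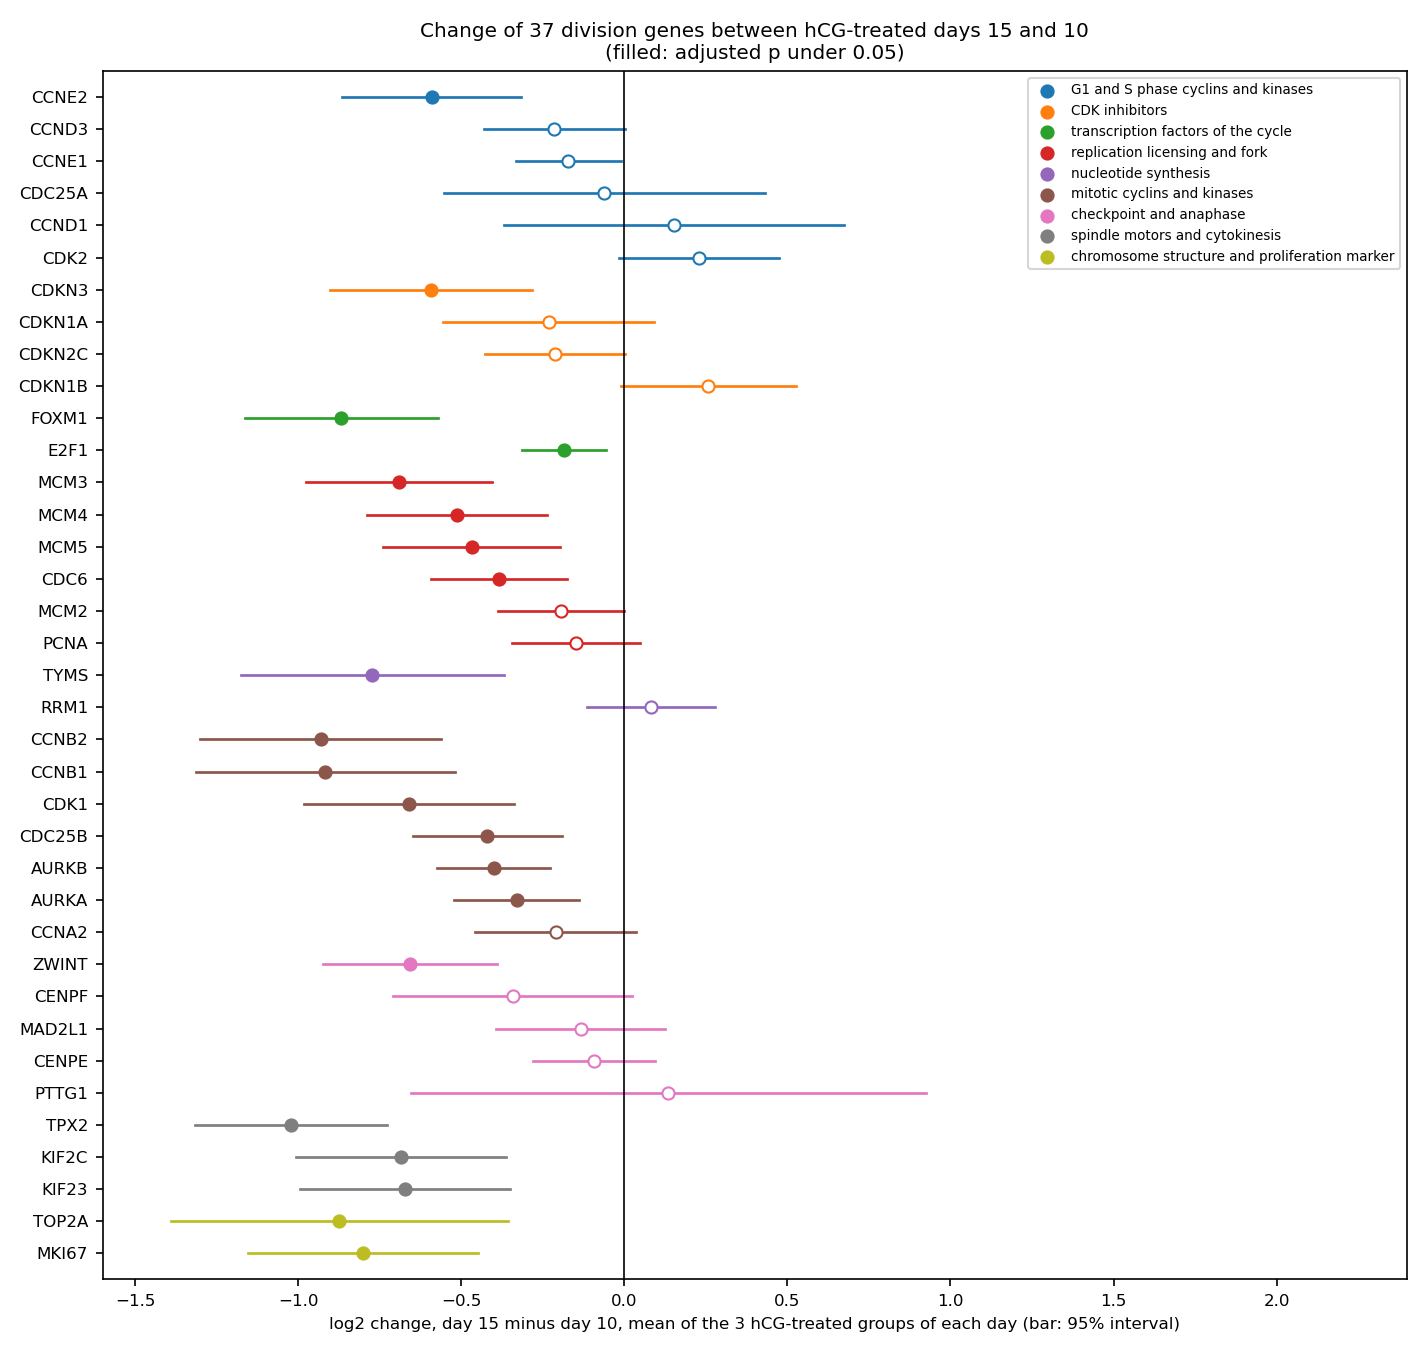
Log2 change between day 15 and day 10 (horizontal axis), each the mean of the 3 hCG-treated groups, for each of the 37 genes (vertical axis, coloured by role); bars are 95% intervals and filled points passed. TPX2 is farthest to the left at -1.02, and no filled point lies to the right of 0.

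TPX2, the factor that brings Aurora A to the spindle, changed most. It measured 6.51, 6.05, 6.48 and 7.02 in day 15 hCG tissue, 6.47, 6.09, 6.42 and 6.16 with trilostane, and 6.24, 6.10, 6.55 and 6.13 with R5020 added. At day 10 it measured 7.58, 7.47, 7.42 and 7.77 with hCG, 7.23, 7.21, 7.76 and 7.44 with trilostane, and 7.22, 7.38, 6.87 and 7.16 with R5020 added, and 6.79 to 7.77 (median 7.12) untreated. The averaged hCG sample was the only one of day 15 to reach the day 10 values. The level was 2.03-fold lower after 6 days than after 1 day of hCG (log2 change -1.02 ± 0.14 SE, adjusted p = 1.535e-05). The other spindle genes were lower too: KIF2C, a kinesin that takes apart microtubule ends, changed by -0.69 ± 0.16 (adjusted p = 0.002811), and KIF23, a kinesin of the midbody in cytokinesis, by -0.67 ± 0.16 (adjusted p = 0.00323).

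The B cyclins and CDK1, the kinase they activate at the entry into mitosis, were lower together. CCNB1 measured 7.69, 7.57, 7.95 and 8.60 in day 15 hCG tissue, 7.82, 7.30, 7.64 and 7.89 with trilostane, and 7.65, 7.87, 8.74 and 7.34 with R5020 added. At day 10 it measured 9.37, 8.65, 9.25 and 8.78 with hCG, 8.67, 8.25, 8.18 and 8.33 with trilostane, and 9.28, 8.73, 8.60 and 8.98 with R5020 added, and 8.56 to 9.56 (median 8.96) untreated. In each of the hCG and R5020 groups of day 15, 1 of the 4 samples lay in the day 10 range and the other 3 lay below it. The change was -0.92 ± 0.19 for CCNB1 (1.89-fold lower, adjusted p = 0.001345) and -0.93 ± 0.18 for CCNB2 (1.91-fold lower, adjusted p = 0.0006151).

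CDK1 had a lowest, median and highest level of 7.59, 7.72 and 8.67 over the 12 day 15 samples, 7.91, 8.49 and 8.98 over the 12 hCG-treated day 10 samples, and 8.53, 8.75 and 9.02 over the 8 untreated samples. Its change was -0.66 ± 0.16 (adjusted p = 0.003834), and 11 of 12 day 15 samples lay below the lowest untreated one. AURKB, the kinase of the chromosomal passenger complex, spread little between samples: 7.90, 8.13 and 8.37 at day 15, 8.27, 8.52 and 8.92 in treated day 10 tissue, and 8.42, 8.53 and 8.79 untreated. No day 15 sample reached the untreated range of AURKB, and its change of -0.40 ± 0.08 (adjusted p = 0.001392) was smaller than that of the cyclins. AURKA, which matures the spindle poles, changed by -0.33 ± 0.09 (adjusted p = 0.01358). CCNA2, the cyclin of S phase and early mitosis, changed by -0.21 with a 95% interval of -0.46 to 0.04 and did not pass. It ran from 8.00 to 8.72 (median 8.27) at day 15, and from 8.07 to 8.93 (median 8.55) in treated day 10 samples, against 8.70 to 9.03 untreated, so that 11 of 12 day 15 samples lay below the lowest untreated one.

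**Figure D3:**
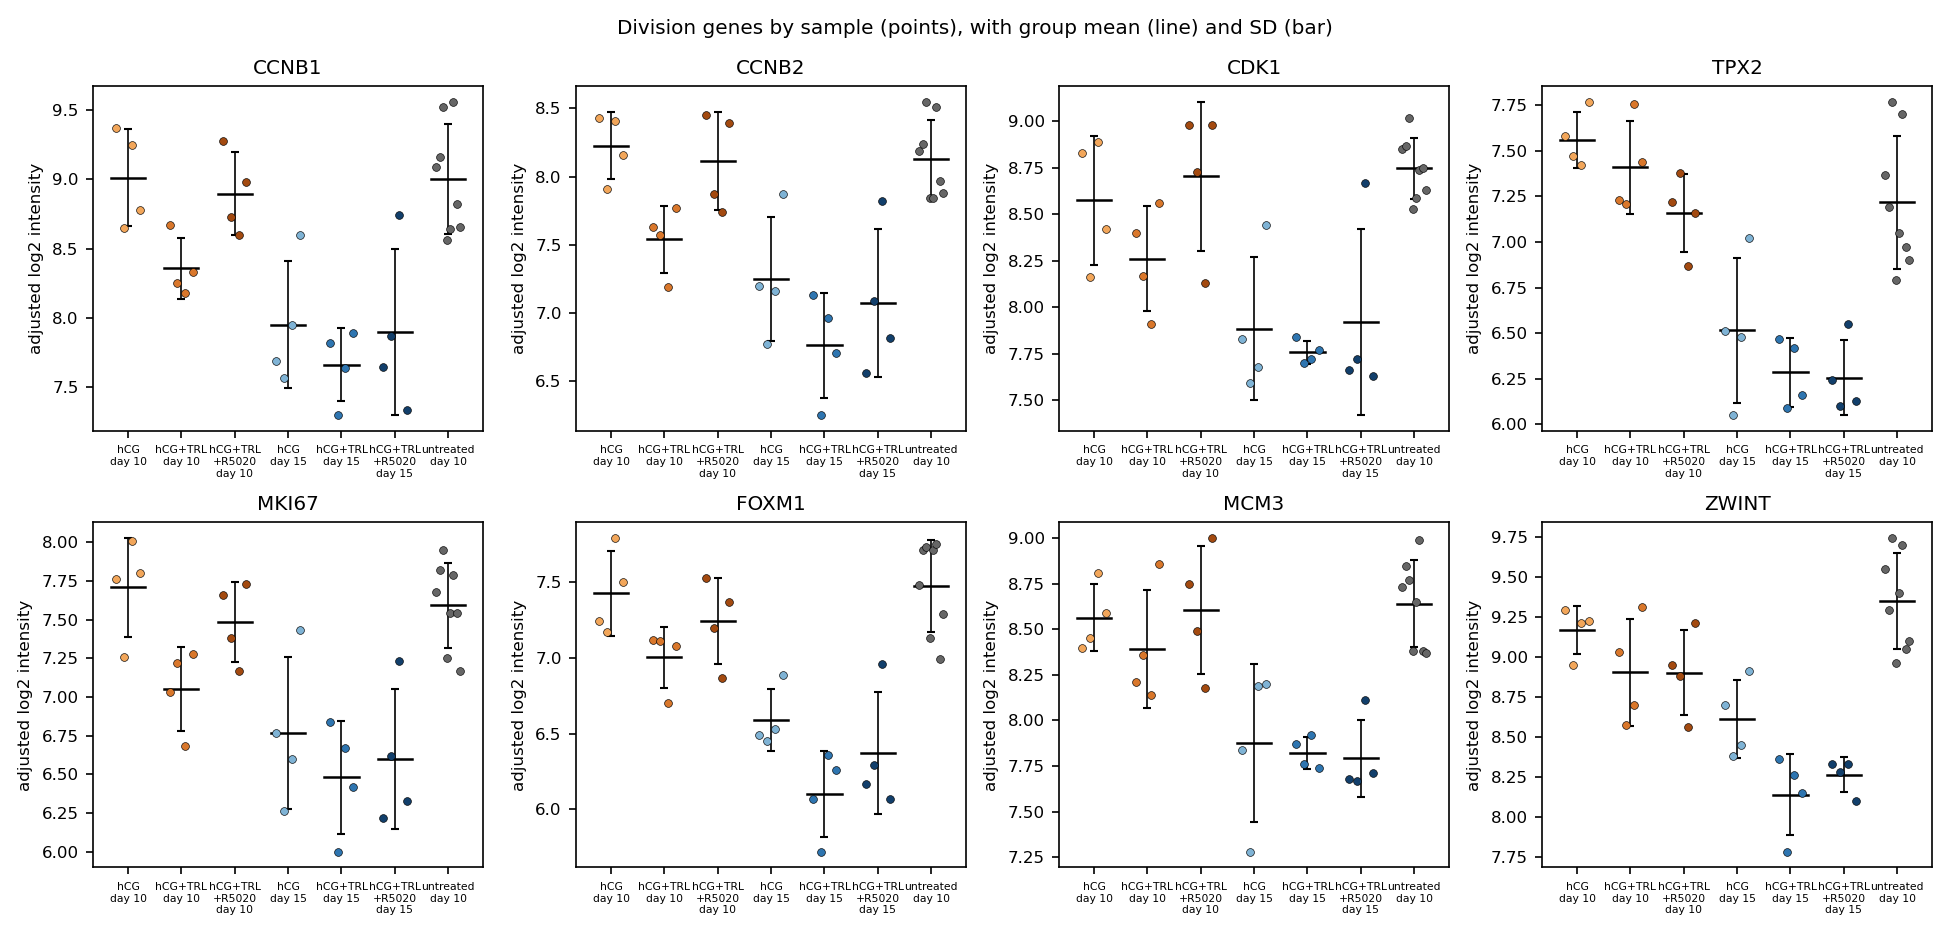
Log2 intensity (vertical axis) of 8 division genes in every sample of the 7 groups (horizontal axis); points are samples, lines means and bars the SD. All 12 day 15 samples lie below all 8 untreated samples for FOXM1, MCM3 and ZWINT, while 1 sample of the hCG group and 1 of the R5020 group reach into the day 10 range for CCNB1.

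MKI67, the protein Ki-67 that marks cycling cells, measured 6.77, 6.26, 6.60 and 7.43 in day 15 hCG tissue, 6.84, 6.00, 6.67 and 6.42 with trilostane, and 6.22, 6.62, 7.23 and 6.33 with R5020 added. At day 10 it measured 7.76, 7.26, 8.01 and 7.80 with hCG, 7.03, 7.22, 6.68 and 7.28 with trilostane, and 7.66, 7.38, 7.17 and 7.73 with R5020 added, and 7.17 to 7.95 (median 7.61) untreated. Day 15 and day 10 overlapped through 1 hCG sample, 1 R5020 sample and the lowest trilostane sample of day 10. The level was 1.74-fold lower after 6 days (change -0.80 ± 0.17, adjusted p = 0.001551). TOP2A, the topoisomerase that untangles chromosomes, varied more: 7.76, 8.32 and 9.61 (lowest, median, highest) at day 15, 8.66, 9.37 and 10.18 in treated day 10 tissue, and 9.31, 9.74 and 10.28 untreated. Its change of -0.87 ± 0.25 passed with an adjusted p of 0.01508.

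Among the checkpoint and anaphase genes, 1 of 5 was lower by its representative probe set. ZWINT, a kinetochore protein that recruits the checkpoint complex, measured 8.70, 8.38, 8.45 and 8.91 in day 15 hCG tissue, 8.36, 7.78, 8.26 and 8.15 with trilostane, and 8.33, 8.28, 8.33 and 8.10 with R5020 added. It measured 8.56 to 9.31 (median 8.99) in treated day 10 tissue and 8.96 to 9.74 (median 9.35) untreated. All 12 day 15 values lay below all untreated ones, and the change against day 10 was -0.66 ± 0.13 (adjusted p = 0.0007826). MAD2L1, a checkpoint protein, changed by -0.13 with its representative probe set and by -0.37 (adjusted p = 0.007848) with another. CENPE and CENPF, kinetochore proteins, changed by -0.09 and -0.34 and did not pass.

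PTTG1, also called securin, could not be read as 1 gene. It ran from 7.03 to 11.29 over the day 15 samples, with 1 trilostane sample at 7.03 and the other 3 at 11.29, 10.57 and 10.26. Its probe sets disagreed for day 15 trilostane tissue against untreated: 1 changed by -0.86 (adjusted p = 0.03308), the representative one by -1.46 (adjusted p = 0.1059) and the third by 0.20 (adjusted p = 0.7922). Between day 15 and day 10 the representative probe set changed by 0.13, with an interval of -0.66 to 0.92.

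FOXM1, the transcription factor of the mitotic genes, measured 6.49, 6.45, 6.53 and 6.89 in day 15 hCG tissue, 6.07, 5.72, 6.36 and 6.26 with trilostane, and 6.17, 6.29, 6.96 and 6.07 with R5020 added. At day 10 it measured 7.24, 7.17, 7.79 and 7.50 with hCG, 7.12, 7.11, 6.70 and 7.08 with trilostane, and 7.53, 7.20, 6.87 and 7.37 with R5020 added, and 6.99 to 7.75 (median 7.59) untreated. All day 15 samples lay below the untreated ones, and R5020 replicate 3, at 6.96, came closest. The level was 1.82-fold lower than at day 10 (change -0.87 ± 0.14, adjusted p = 0.0001328). E2F1, which switches on S phase genes, changed by -0.18 ± 0.06 (adjusted p = 0.03781).

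Genes of DNA replication were lower in part. MCM3, a subunit of the helicase that opens the double strand, measured 7.84, 7.28, 8.19 and 8.20 in day 15 hCG tissue, 7.87, 7.76, 7.92 and 7.74 with trilostane, and 7.68, 7.67, 8.11 and 7.71 with R5020 added. It measured 8.14 to 9.00 (median 8.47) in treated day 10 tissue and 8.37 to 8.99 (median 8.69) untreated. No day 15 sample reached the untreated range, and the change against day 10 was -0.69 ± 0.14 (adjusted p = 0.0009055). Other subunits of the same helicase changed less: MCM4 by -0.51 ± 0.13 (adjusted p = 0.007691) and MCM5 by -0.47 ± 0.13 (adjusted p = 0.01324), while MCM2 changed by -0.19 and did not pass. CDC6, which loads the helicase on origins, changed by -0.38 ± 0.10 (adjusted p = 0.008655), close to the median of all array values.

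TYMS, which makes thymidylate, ran from 7.34 to 8.99 (median 8.14) at day 15, from 8.56 to 9.51 (median 9.09) in treated day 10 tissue and from 8.91 to 9.82 (median 9.20) untreated. It was 1.71-fold lower than at day 10 (change -0.77 ± 0.20, adjusted p = 0.006388). RRM1, the large subunit of ribonucleotide reductase, did not pass, with a change of 0.08. PCNA, the sliding clamp of the replication fork, also serves DNA repair. It ran from 10.17 to 10.59 (median 10.39) at day 15, from 10.13 to 10.88 (median 10.57) in treated day 10 tissue and from 10.53 to 11.02 (median 10.77) untreated. The change between the days was -0.15 with an interval of -0.35 to 0.05, although 10 of 12 day 15 samples lay below the lowest untreated one.

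Of the regulators that act before S phase, 1 of 6 cyclins and kinases and 1 of 4 inhibitors were lower. CCNE2, a cyclin E that opens S phase, ran from 6.23 to 7.12 (median 6.89) at day 15, from 6.94 to 8.16 (median 7.32) in treated day 10 tissue and from 6.93 to 7.88 (median 7.47) untreated, with a change of -0.59 ± 0.13 (adjusted p = 0.002623). CDKN3, a phosphatase that acts on CDK1 and CDK2 and is itself made by dividing cells, changed by -0.59 ± 0.15 (adjusted p = 0.006302), and 11 of 12 day 15 samples lay below the lowest untreated one. The D cyclins, which answer growth factors, did not pass: CCND1 changed by 0.15 (interval -0.37 to 0.67) and CCND3 by -0.22.

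CCND1 spread widely in hCG tissue of day 10, with 8.94, 8.15, 6.94 and 8.80, against 8.59 to 9.53 untreated. The inhibitors that hold cells out of the cycle did not pass either. CDKN1A, the p21 protein induced by p53, ran from 10.20 to 11.15 at day 15 and from 10.11 to 11.62 in treated day 10 tissue, a change of -0.23. CDKN1B, the p27 protein of resting cells, ran from 9.47 to 9.97 at day 15 and from 8.87 to 10.08 in treated day 10 tissue, a change of 0.26 with an interval of -0.01 to 0.53. CDKN2C changed by -0.21, CCNE1 by -0.17, CDK2 by 0.23 and CDC25A by -0.06, and none of these 4 passed.

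After 1 day of hCG alone, a single division gene differed from untreated tissue, where 4.28% of all genes were higher and 1.28% lower. CDC25B, the phosphatase that activates CDK1 ahead of mitosis, measured 9.11, 9.11, 9.68 and 9.78 with hCG, against 8.56 to 9.07 (median 8.73) untreated. All 4 treated samples lay above all untreated ones, and the level was 1.58-fold higher (change 0.66 ± 0.16, adjusted p = 0.01427). It did not pass without hCG replicate 3 or 4, within array set 1, or without the array set term, where CDC25A, a phosphatase of the same family, passed in its place and was lower (-1.01, adjusted p = 0.04332). With trilostane CDC25B measured 9.08, 8.62, 9.00 and 8.79 at day 10, and with R5020 added 9.19, 8.89, 9.23 and 8.91.

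CDC25B then stood at 8.75, 8.94, 8.34 and 8.99 in day 15 hCG tissue, a change of -0.67 ± 0.16 against 1 day of hCG (adjusted p = 0.01122) and of -0.01 against untreated. The B cyclins did not pass after 1 day: CCNB1 changed by 0.01 ± 0.27 and CCNB2 by 0.10 ± 0.25. The median over the 37 genes was -0.11 after 1 day, with 26 below 0. It was -0.32 after 1 day of hCG with trilostane and -0.05 with R5020 added. None of the 37 passed after 1 day of hCG with trilostane, where 1.66% of all genes were lower, or with R5020 added, where 0.723% were lower. At an unadjusted p under 0.05 there were 14 of the 37 with trilostane (37.8%, against 16.6% of all genes) and 3 with R5020 added (8.11%, against 11.4%). The smallest adjusted p with trilostane was 0.09486, for CDKN3.

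Each treatment at day 15 was also set against the same 8 untreated samples, so these 3 comparisons share their baseline. After 6 days of hCG alone, 15 of the 37 genes were lower and 0 higher, where 2.05% of all genes were lower and 4.08% higher, with a median of -0.51. With trilostane 19 were lower and 0 higher (5.34% and 4.46% of all genes), with a median of -0.52 and all 37 below 0. With trilostane and R5020 11 were lower and 0 higher (1.96% and 1.8% of all genes), with a median of -0.52. FOXM1 changed by -0.89 with hCG (adjusted p = 0.006393), by -1.37 with trilostane (at least 2.44-fold lower, adjusted p = 0.0001541) and by -1.10 with R5020 added (adjusted p = 0.002688).

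ZWINT changed by -0.74, -1.21 and -1.09 in the same 3 comparisons, with adjusted p of 0.01121, 0.0001872 and 0.001135. CCNB1 changed by -1.05, -1.34 and -1.10, with adjusted p of 0.01539, 0.003087 and 0.02484. TOP2A changed by -1.20, -1.37 and -1.17, of which the last did not pass (adjusted p = 0.07578). By their representative probe sets, the genes that passed with trilostane and in neither of the others were CCNE1 (-0.46, adjusted p = 0.01121), TYMS (-1.31, adjusted p = 0.004361), MCM4 (-0.68, adjusted p = 0.0268), CDC6 (-0.49, adjusted p = 0.03871) and CCNA2 (-0.63, adjusted p = 0.02264), and none of these differed between treatments in the tests given further on. That list depended on the probe set for 4 of them: the other one of TYMS passed with R5020 added too (-0.89, adjusted p = 0.04115), that of CCNA2 passed with hCG alone (-0.61, adjusted p = 0.04582) and not with trilostane (adjusted p = 0.1014), and those of MCM4 (adjusted p = 0.2077) and CDC6 (adjusted p = 0.07712) did not pass with trilostane.

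Among the other genes of mitosis, CCNB2 changed by -0.88, -1.36 and -1.05 (adjusted p of 0.03198, 0.001558 and 0.02099) and CDK1 by -0.86, -0.99 and -0.83 (adjusted p of 0.01449, 0.006495 and 0.04139). A second probe set of CDK1 passed with hCG and with trilostane but not with R5020 added (-0.59, adjusted p = 0.06093). The third passed in none of the 3, with -0.82, -1.01 and -0.49 (adjusted p of 0.426, 0.2759 and 0.7266). TPX2 changed by -0.70, -0.93 and -0.96 (adjusted p of 0.03047, 0.005072 and 0.008112) and MKI67 by -0.83, -1.11 and -0.99 (adjusted p of 0.03287, 0.005302 and 0.02252). The aurora kinases moved least of the genes that passed in all 3: AURKA changed by -0.51, -0.52 and -0.52 (adjusted p of 0.01554, 0.01625 and 0.02897) and AURKB by -0.41, -0.42 and -0.44 (adjusted p of 0.03037, 0.02909 and 0.04325). The other probe set of AURKA passed in none of the 3, with -0.28, -0.29 and -0.31 (adjusted p of 0.1573, 0.139 and 0.1673).

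Both kinesins passed with hCG and with trilostane but not with R5020 added. KIF23 changed by -0.85, -1.01 and -0.78 (adjusted p of 0.01534, 0.005472 and 0.05679) and KIF2C by -0.77, -1.10 and -0.75 (adjusted p of 0.031, 0.00299 and 0.06511). MCM3 of the replication helicase changed by -0.76, -0.82 and -0.84 (adjusted p of 0.01487, 0.01077 and 0.01613) and CDKN3 by -0.72, -0.94 and -0.85 (adjusted p of 0.0355, 0.006935 and 0.02784), so both passed in all 3. CCNE2 differed by probe set. Its representative one changed by -0.80, -0.52 and -0.57 and passed with hCG alone (adjusted p of 0.007843, 0.1004 and 0.109), and its other one changed by -1.04, -0.96 and -0.85 and passed in all 3 (adjusted p of 0.002506, 0.005867 and 0.02534).

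Of the genes outside this pattern, CDC25B (-0.01, -0.15 and -0.04) and CCND1 (-0.65, -0.39 and -0.26) passed in none of the 3.

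All 12 day 15 samples lay below all 8 untreated ones for 4 of the 37 genes, FOXM1, MCM3, AURKB and ZWINT, where this held for 1.12% of all genes. For none of the 37 did they lie below all 12 treated day 10 samples, where 0.533% of all genes did.

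**Figure D4:**
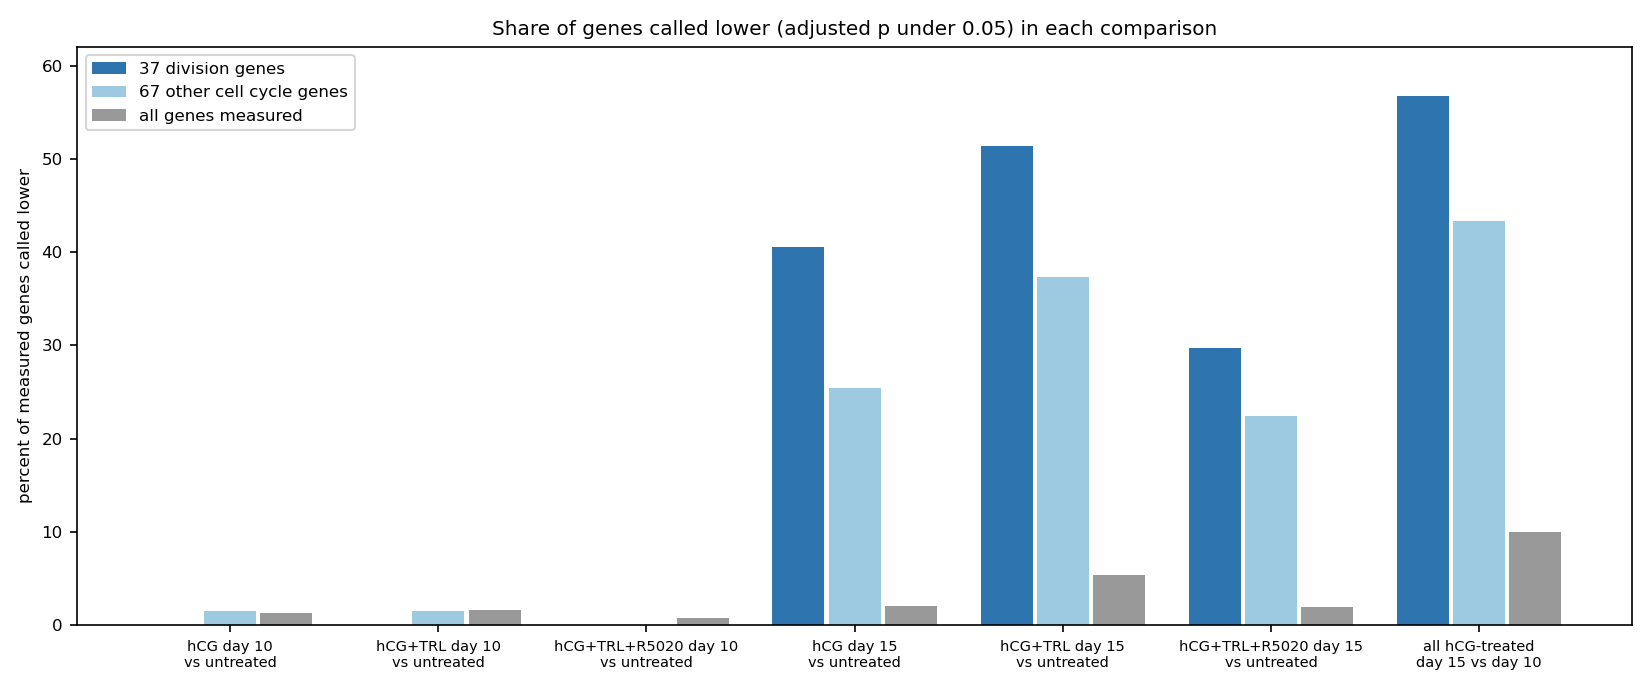
Percent of genes called lower (vertical axis) in 7 comparisons (horizontal axis), for the 37 division genes, the 67 other cell cycle genes and all 10507 genes. Bars start at 0, and the division genes are highest with the 3 treatments pooled (21 of 37) and in day 15 trilostane tissue against untreated (19 of 37).

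These counts rested on single samples more than the pooled one did. The 15 calls for hCG alone became 3 without day 15 hCG replicate 2, 6 without untreated replicate 3, 7 without hCG replicate 4, and 9 without untreated replicate 1 or 2. FOXM1 and ZWINT passed under every alternative. The 19 calls with trilostane became 12 without trilostane replicate 2, and 11 genes passed under every alternative: FOXM1, MCM3, TYMS, CCNB1, CCNB2, CDK1, ZWINT, TPX2, KIF23, KIF2C and MKI67.

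The 11 calls with R5020 became 3 without R5020 replicate 1 or 2, and 4 without R5020 replicate 4 or untreated replicate 7. They became 6 without the averaged day 15 hCG sample. Without the near-identical replicate 4 arrays there were 17, 16 and 3 calls for hCG, trilostane and R5020. The medians were then -0.65, -0.57 and -0.44, less alike than with all arrays. The averaged day 15 hCG sample also carried no weight in that fit, so these shifts cannot be laid to the near-identical arrays alone. Taking only arrays of a set in which the compared groups both lie, 17 genes were lower for hCG (set 1), 15 for trilostane and 1 for R5020 (set 2).

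The change between the days was also read within each treatment. With hCG alone, 10 genes were lower after 6 days than after 1 day and 0 higher (4.51% and 3.18% of all genes), among them TPX2 (-1.04, adjusted p = 0.002269), CDC25B, FOXM1 (-0.84, adjusted p = 0.01367), MKI67 (-0.95, adjusted p = 0.01885) and CCNB1 (-1.06, adjusted p = 0.01988). The others were CCNB2 (-0.98, adjusted p = 0.02123), AURKB (-0.44, adjusted p = 0.02836), MCM3 (-0.68, adjusted p = 0.03699), KIF2C (-0.76, adjusted p = 0.04139) and KIF23 (-0.74, adjusted p = 0.04491). That count was also 10 within array set 1. It was 1 without day 10 hCG replicate 3, 2 without day 15 replicate 2, 4 without day 15 replicate 1, 5 without day 10 replicate 4 and 6 without day 10 replicate 1, and TPX2 passed in all of these. The list depended on the probe set for 4 of the 17 genes with several. The other one of CCNB1 did not pass (-0.75, adjusted p = 0.05138). Another one passed for CDK1 (-0.58, adjusted p = 0.04185), TOP2A (-0.90, adjusted p = 0.04044) and AURKA (-0.38, adjusted p = 0.04836), whose representative ones did not.

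With trilostane, TPX2 alone was lower (1.28% of all genes, -1.13, adjusted p = 0.03024), and it did not pass without the near-identical arrays. Nor did it pass without untreated replicate 2, 4 or 7, or without trilostane replicate 3 of day 10. The same held without the averaged hCG sample of day 15, or trilostane replicate 2 or 4 of day 15. Without untreated replicate 8, 2 genes passed. The trilostane groups of day 10 and day 15 shared no array set, so their change was estimated with a wider error. For CCNB1 the SE was 0.38 with trilostane, against 0.28 with hCG alone and 0.28 with R5020 added. The median change of the division genes was -0.29 with trilostane, against -0.45 with hCG alone and -0.35 with R5020 added. The low count with trilostane therefore does not by itself show a smaller fall. With R5020 added, 6 were lower (1.65% of all genes): CCNE2 (-0.90, adjusted p = 0.01288), TPX2 (-0.90, adjusted p = 0.01976), CDKN3 (-0.95, adjusted p = 0.02004), FOXM1 (-0.87, adjusted p = 0.02643), MCM3 (-0.81, adjusted p = 0.03106) and CCNB2 (-1.04, adjusted p = 0.03316). CCNE2 passed under every alternative by its representative probe set, but its other probe set did not pass (-0.70, adjusted p = 0.08707). There were 12 calls without R5020 replicate 3 of day 15, 2 without R5020 replicate 4 of day 10 or without the near-identical arrays, and 1 without replicate 1 of day 10, without replicate 1, 2 or 4 of day 15, or within array set 2.

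Neither steroid ablation nor progestin replacement changed a division gene past the threshold. Trilostane added to hCG at day 10 gave 0 of 37 calls, where 0.00952% of all genes (1 gene) were called, and 10 of the 37 (27%) had an unadjusted p under 0.05, against 17.3% of all genes. The median of the 37 was -0.18, with 31 below 0, and the median of all genes was -0.11. The gene nearest the threshold was CCND3, a D cyclin, at 10.07, 9.42, 9.68 and 10.14 with trilostane against 10.38, 10.65, 10.71 and 10.54 with hCG alone. The groups did not overlap, and the change was -0.74 (interval -1.05 to -0.44, adjusted p = 0.08845). MKI67 changed by -0.66 (interval -1.16 to -0.16, adjusted p = 0.2576) and CCNB2 by -0.69 (interval -1.21 to -0.17, adjusted p = 0.2583). Without trilostane replicate 1, CCND3 passed (-0.83, adjusted p = 0.02863).

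At day 15 trilostane gave 0 of 37 calls (0% of all genes), with 0 members at an unadjusted p under 0.05 (6.74% of all genes). The median of the 37 had no settled sign: it was -0.15, and -0.05 without hCG replicate 3. It was 0.01 without the near-identical arrays, where the averaged hCG sample dropped out as well. ZWINT came closest, with a change of -0.47 (adjusted p = 0.8486), and FOXM1 followed with -0.49 (adjusted p = 0.8694). R5020 added to trilostane gave 0 of 37 calls at either day (0% of all genes), with 3 members at an unadjusted p under 0.05 at day 10 (8.11%, against 2.89% of all genes) and 0 at day 15 (4.03% of all genes). The median was 0.21 at day 10, with 30 above 0, and 0.11 at day 15, with 27 above 0. Without the near-identical arrays these medians were 0.26 and 0.13, and with single samples left out that of day 15 ran from -0.01 to 0.16. CDKN3 changed by 0.77 at day 10 with an interval of 0.16 to 1.37 and an adjusted p of 0.9998.

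Trilostane with R5020 against hCG alone gave 0 of 37 calls at day 10 and at day 15 (0% of all genes), with medians of -0.04 and -0.06. Both signs turned without the near-identical arrays (0.04 and 0.12) and without day 15 hCG replicate 3 (0.04 and 0.04). The former fit also lost the averaged day 15 hCG sample. The effects of trilostane and of R5020 were compared between the days as well, and 0 of 37 genes differed in either (0% of all genes in both). With 4 samples a group the intervals were wide. At day 15 MKI67 changed by -0.28 with trilostane, between -0.93 and 0.37, and by 0.12 with R5020 added, between -0.38 and 0.62. Array sets limited these comparisons too. The day 10 R5020 group shared no array set with the other treatments of its day. Day 15 hCG shared only array set 3 with the other treatments of its day.

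**Figure D5:**
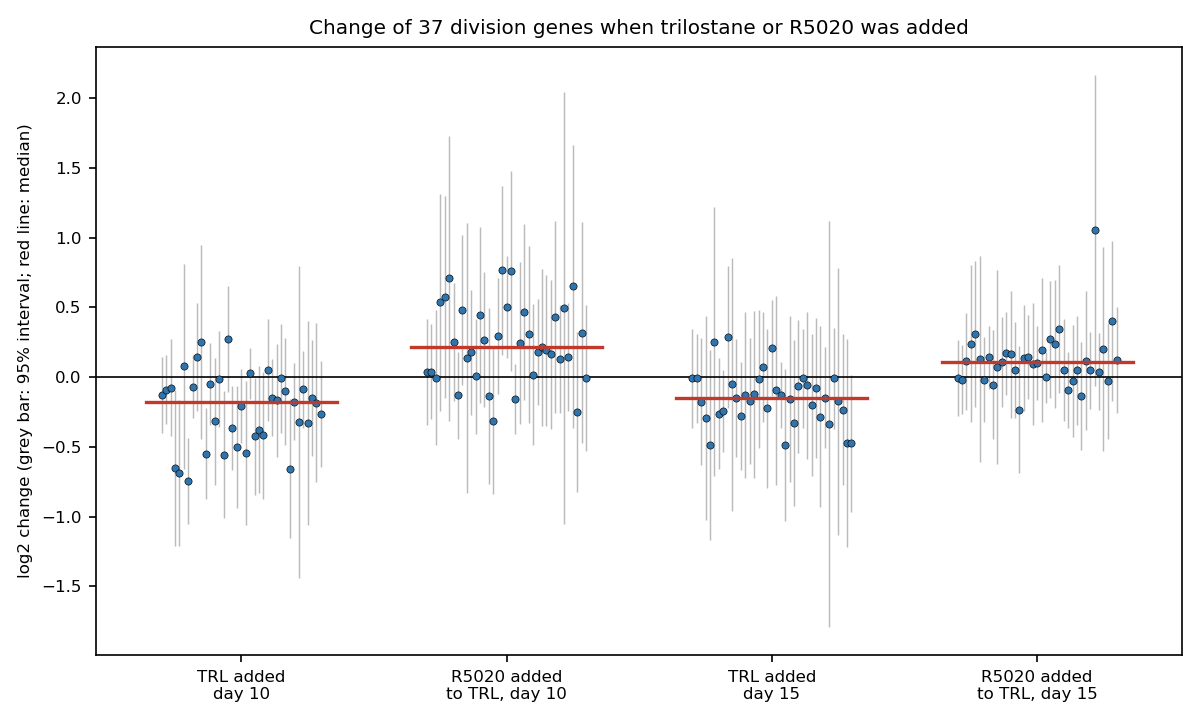
Log2 change of each of the 37 genes (points, with 95% intervals) when trilostane is added to hCG and when R5020 is added to trilostane, at day 10 and day 15; lines are medians. The medians are -0.18 and -0.15 for trilostane and 0.21 and 0.11 for R5020, those of day 15 change sign when some samples are left out, and no gene passed.

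Another 103 genes of the cell cycle were listed, of which 67 were measured, and 29 of them were lower and 10 higher at day 15 than at day 10 over the 3 treatments, where 10% of all genes were lower and 11.9% higher, so that the number higher was near that of genes in general. Of 24 further mitosis genes, 15 were lower, among them KIF4A, a chromosome motor (-0.73, adjusted p = 0.0002651), and MELK, a mitotic kinase (-1.0, adjusted p = 0.0006242). BUB3, a checkpoint protein, led the 4 that were higher (1.18, adjusted p = 5.944e-08). Of 17 replication genes, 7 were lower and 3 higher: UHRF1, which keeps DNA methylation through replication, was 2.13-fold lower (-1.09, adjusted p = 4.889e-05), whereas GMNN, the inhibitor of origin licensing, was higher (0.86, adjusted p = 0.0007318), as was DUT, a dUTPase (0.47, adjusted p = 0.0003721).

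Of 14 regulators of G1 and S phase 6 were lower, with MYBL2, a partner of FOXM1, first (-0.63, adjusted p = 5.073e-06), then E2F2 (-0.39, adjusted p = 0.001668) and TFDP1, the binding partner of E2F proteins (-0.61, adjusted p = 0.002927). Of 12 brakes on division, 3 were higher, among them RB1, the retinoblastoma protein that holds E2F in check (0.61, adjusted p = 0.0009264), and CCNG1 (0.38, adjusted p = 0.00804). GADD45B, a stress response gene, was lower (-1.24, adjusted p = 0.000265) after it had been higher than untreated on the first day of hCG (1.72, adjusted p = 0.001507). Of the 67 genes, 3 were called after 1 day of hCG, where 4.28% of all genes were higher and 1.28% lower, a number near that of genes in general. They were GADD45B, TOB1, a gene that restrains growth (1.10, adjusted p = 0.04594), and ECT2, which starts cytokinesis (-1.05, adjusted p = 0.02852).

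Markers of other cells moved between the days as well. Over the 3 treatments, 11.9% of all genes were higher and 10% lower at day 15 than at day 10. Of 10 macrophage markers measured, 8 were higher in that comparison and 0 lower, with a median change of 0.91. The list's mean level ran from 9.60 to 10.02 with hCG, 10.10 to 10.92 with trilostane and 9.82 to 10.37 with R5020 at day 15, and from 9.11 to 9.46, 8.86 to 9.96 and 9.22 to 9.71 in the same treatments at day 10, against 8.71 to 10.07 untreated. Of 11 endothelial markers, which belong to the cells known to divide most in the gland, 1 was higher and 0 lower, and the number higher was near that of genes in general. The medians of the 7 groups for these markers lay between 9.65 and 9.89. Of 5 steroidogenic markers, 2 were lower and 0 higher, with a median of 0.08: HSD3B2 was 4.31-fold lower (-2.11, adjusted p = 8.456e-08) and FDXR changed by -0.71 (adjusted p = 0.0001724). Against untreated tissue, 4.08% of all genes were higher and 2.05% lower after 6 days of hCG alone. Of the 5 steroidogenic markers, 2 were higher, STAR (0.30, adjusted p = 0.0007241) and CYP17A1 (1.99, adjusted p = 0.002561), and 1 lower, HSD3B2. The part of these shifts in the levels of the division genes was not tested.

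Some samples stood highest or lowest of their group for many division genes at once. Ranks over all genes were not counted, so samples that stood apart in general cannot be told from those that did so in division genes. In day 15 R5020 tissue replicate 3 was the highest of 4 in 26 of the 37 genes, and in 15 of the 17 genes of mitosis. In day 15 trilostane tissue replicate 2 was the lowest in 23 genes, and in 15 of 17. In day 15 hCG tissue the averaged sample was highest in 22 genes and replicate 2 lowest in 21. At day 10 R5020 replicate 3 was lowest in 29.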

How the data were processed

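Total RNA, extracted with TRIzol per the labels' protocols, was hybridised to 33 Affymetrix Rhesus Genome arrays. The values are log2 intensities per probe set as deposited by the authors (2.60 to 15.12); background correction, summarization, normalization: not given in the sources used here. Of 52865 probe sets, 99 controls were left out. Array medians differed by 0.183, so medians were subtracted array by array. The filter kept probe sets that in 4 or more arrays exceeded 6.1855, the overall median (28911; 17606 with 1 symbol, 240 with several, 11065 with none, by the platform's annotation), and the brightest kept probe set on average stands for a gene.

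A single limma fit (limma 3.58.1, statmod 1.5.0, R 4.3.3; lmFit and eBayes with a trend) of 32 samples held group and array set, with 23 residual degrees of freedom. It gave 18 two-sided comparisons and a moderated F test, with Benjamini-Hochberg adjustment over all kept probe sets and a threshold of 0.05. The fit was tested on simulated data. Where a passing group's mean lay under 6.1855, the fold is counted from that value and given as "at least". Day 15 hCG replicates 3 and 5 were averaged, coded as 0.5 of each array set.

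The genes and lists were chosen with earlier results of these data known. The rule names MKI67, TOP2A, PCNA, CDK1, CCNB1, the D cyclins, CDKN1A, CDKN1B and AURKA always, passing genes (up to 20 by adjusted p), the 3 genes of each role first in the F test, and genes whose probe sets disagree. Lists of other genes give up to 3. Alternatives changed the array set term, centring, normalization, filter, trend, probe set rule, replicates 3 and 5, near-identical arrays, replicate block and each sample in turn. No genome was used.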

Additional observations from a re-analysis of the deposited data

Results flagged for a closer look

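In 10 of 259 sets of values (37 genes in 7 groups), 1 sample stood apart from the rest of its group by Dixon's criterion, where chance gives about 1 in 20. In day 10 trilostane tissue, replicate 3 was low for CCNE1 (6.82, the next at 7.10) and FOXM1 (6.70, the next at 7.08). In the same group replicate 4 was high for CCNE2 (7.72), MCM4 (8.59, the next at 8.08) and MCM5 (9.30, the next at 8.69), and replicate 1 was high for MAD2L1 (8.58). In day 15 R5020 tissue replicate 3 was high for CDK1 (8.67, the next at 7.72) and MCM3 (8.11, the next at 7.71). In day 10 R5020 tissue replicate 2 was high for CDC25A (6.90), and in untreated tissue replicate 7 was low for CENPE (6.66).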

How the results depend on the processing

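Counts below are of the 37 genes called. The pooled count of 21 ran from 20 to 24 over the other settings and from 20 to 21 with each sample left out in turn. The F test's 20 ran from 18 to 22 with a sample left out. With a sample left out, the counts against untreated ran from 3 to 18 for 6 days of hCG, 12 to 21 with trilostane, 3 to 15 with R5020, 0 to 1 for 1 day of hCG, and 0 to 1 for 1 day with trilostane. Those between the days ran from 1 to 14 for hCG, 0 to 2 with trilostane and 1 to 12 with R5020, and that for trilostane added at day 10 from 0 to 1. Without the array set term, the counts against untreated were 21 for day 15 R5020 and 3 for day 10 trilostane (which was also 3 within array set 1, and 1 with a gene's probe sets averaged), and those between the days 11 with trilostane and 11 with R5020. For day 15 R5020 against untreated, 19 genes passed with hCG replicates 3 and 5 as 2 samples, 4 without replicate 3, 3 without the near-identical arrays and 1 within array set 2. Between the days, trilostane gave 0 without replicate 3 or without the near-identical arrays, and R5020 gave 2 without those arrays and 1 within array set 2. For 1 day of hCG 0 passed within array set 1, and without the array set term the gene called was CDC25A (lower), not CDC25B. The cause of these shifts was not tested.

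Replicate numbers do not pair the samples: 78 same-numbered pairs had a median correlation of 0.011, against 0.003 over 354 others. With a replicate block (consensus correlation -0.0093) the counts were 21 pooled, 15, 20 and 11 for hCG, trilostane and R5020 at day 15 against untreated, 10, 1 and 6 between the days, 1 for 1 day of hCG, and 20 for the F test; the other counts were 0 in both.

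Signs turned in genes that did not pass. CDKN1A at 6 days of hCG against untreated was -0.2222 without the array set term, -0.0096 without centring, -0.0543 after quantile normalization, -0.0123 with replicates 3 and 5 as 2 samples, and -0.1068 to 0.1573 with a sample left out. CDKN1B there was 0.0251 with 2 samples and -0.0745 to 0.1027 with a sample left out, and CCND3 ran from -0.1427 to 0.0383, the upper value without hCG replicate 2. CCNB1 at 1 day of hCG was -0.0749 within array set 1, without replicate 3 and without the near-identical arrays, -0.0209 without centring, -0.0275 after quantile normalization, -0.0709 with probe sets averaged, and -0.1328 to 0.1712 with a sample left out. CCND1 for hCG, day 15 against day 10, ran from -0.1941 (without day 10 replicate 3) to 0.4718. Of 1155 values of named genes under other settings 1060 kept direction and side of the threshold, and 3186 of 3424 with a sample left out.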
